A study of Mus musculus with 44 samples.

Results

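Cells make cholesterol and fatty acids from acetyl-CoA through chains of enzymes whose genes are largely switched on by the SREBP transcription factors. Surplus cholesterol is carried out of the cell by the membrane exporters ABCA1 and ABCG1, whose genes are known targets of the sterol-sensing LXR receptors. Activated T cells raise lipid synthesis to build membranes as they divide.

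The set described here holds 32 genes of these pathways, of 55416 genes in the deposited count table. Its members were chosen by name, as 17 genes of sterol synthesis, 3 regulators (Srebf1, Srebf2 and Insig1), 2 genes of sterol transport and uptake control (Stard4 and Mylip), 8 genes of fatty acid synthesis and the 2 exporters. The first 30 are treated apart from the exporters. All 32 passed the filter on low counts, as did 21873 genes in all. Within the set, 18 genes passed the test in at least 1 of 22 comparisons (56.2%, against 60.8% of all genes tested). The other 14 passed in none, namely Pmvk, Mvd, Fdps, Fdft1, Sqle, Lss, Nsdhl, Srebf2, Insig1, Stard4, Fasn, Scd1, Scd2 and Fads2.

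The study sequenced polyadenylated RNA from cultures of mouse CD4 T cells that were wild type (WT), knockout (KO) or knock-in (KI) for miR-150, a microRNA of lymphocytes. All mice were labelled C57BL/6NTac. Naive cells sorted from spleen were plated at 150000 per well and kept for 3 days with antibodies against CD3 and CD28, alone (Th0), with IL-12 and an antibody against IL-4 (Th1), or with TGF-b1 and an antibody against IFN-g (Treg). Each of the 9 groups had 5 libraries, apart from Th0 KI with 4, which lacks the number 2. The labels do not give the age of the mice, how the knockout and knock-in alleles were made, or what a library number marks, so p-values measure the spread between these libraries. In such bulk RNA, fewer cells of a type and less RNA per cell cannot be told apart.

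Total counts per library ran from 60815821 to 137415965. The Mir150 hairpin itself had a sum of 6 counts in WT (15 libraries), 0 in KO (15) and 7 in KI (14), so it does not check the knock-in labels. The summed level of 8 CD4 T cell markers was 1600 to 3250 CPM (counts scaled to library size) in the libraries. The summed level of 8 markers of CD8 T and NK cells reached 952 CPM in Treg WT 4, 272 CPM in Treg KO 2 and 590 CPM in Treg KI 3, against a median of 76.6 to 87.3 CPM in the 3 Treg groups. The libraries of the same numbers were also the highest of their groups in the other cultures, at 448, 257 and 519 CPM in Th0 WT 4, Th0 KO 2 and Th0 KI 3 (group medians 151 to 239 CPM) and at 588, 225 and 437 CPM in Th1 WT 4, Th1 KO 2 and Th1 KI 3 (group medians 146 to 163 CPM). B cell markers, 8 in number, summed to 54.7 to 1980 CPM and were highest in Th0 KI 3, and 5 erythroid markers summed to at most 4.46 CPM. Foxp3, which defines regulatory T cells, measured 159, 47.7, 77.4 and 62 CPM in Treg WT 3, Treg WT 4, Treg KO 2 and Treg KI 3, and at 376 to 596 CPM in the other Treg libraries. The libraries numbered WT 5 stood apart in all 3 cultures for the genes of this set, as given with the library values. Counts and calls that change when these libraries are left out are given with both values.

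Short promoter stretches are shown first, since the pathway is known for the regulatory letters its promoters carry. RefSeq promoters on GRCm38.p6, running from 250 bases before to 50 bases after the annotated start, were found for 24 of the 32 genes. The first 3 stretches carry TCACNCCA, letters of the sterol regulatory element that SREBP proteins bind, and the last carries CACGTG, the E-box. Capitals mark these letters, and every stretch of 30 bases is read 5′ to 3′ on the strand of its gene.
Hmgcs1 (chr13:119690203-119690232, plus strand): acgtcaccgtcTCACCCCActtcccaggtc
Srebf2 (chr15:82147096-82147125, plus strand): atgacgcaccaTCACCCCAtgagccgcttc
Msmo1 (chr8:64733737-64733766, minus strand): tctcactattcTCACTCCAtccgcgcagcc
Abca1 (chr4:53160025-53160054, minus strand): gggccatgtctcCACGTGctttctgctgag

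The letters TCACNCCA were found, on either strand, in 3 of these 24 genes (12.5%), against 4.36% of 32851 promoters in the table. CACGTG was in 5 of 24 (20.8%, against 7.15%), namely Hsd17b7, Sc5d, Dhcr7, Insig1 and Abca1. The CCAAT box letters ATTGG were in 20 of 24 (83.3%, against 37.4%), and the GC box letters GGGCGG in 20 of 24 (83.3%, against 35.7%). The LXR element DR4, a pair of AGGTCA separated by NNNN, was in 0 of 24, against 0.0152% of all promoters. These exact letters were in only 5 of the 32851 promoters, too few for the 0 to show whether the members carry LXR elements. Members were counted by gene, with a match in any promoter of the gene, while the share of all promoters counts each promoter. The shares thus differ in unit, and no enrichment is read from them. The letter sets were settled after several had been tried, matches of different sets may overlap, and a match describes letters and not a bound site.

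Levels per length differed widely within the set. Averaged over the libraries and divided by the summed length of the annotated exons, Scd2, a desaturase that makes oleic acid from stearic acid, stood highest at 243 CPM per kb. It was followed by Acly, which makes cytosolic acetyl-CoA from citrate, at 100 CPM per kb, Idi1, which interconverts the isoprenoid building blocks, at 97.2, and Hmgcs1, which makes HMG-CoA, at 81.6. The lowest were Mylip, at 1.42 CPM per kb, and the exporters Abca1 and Abcg1, at 3.71 and 4.10. Mylip encodes the ubiquitin ligase IDOL, which marks lipoprotein receptors for degradation.

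The exporters had the largest log2 fold changes of the set between cultures. By group mean, Abca1 was highest in Th1 cultures and Abcg1 in Treg cultures, although for Abca1 the difference between Th1 and Treg did not pass in WT. Abca1 (ENSMUSG00000015243, chromosome 4, 53030787 to 53159895, minus strand, GRCm38), which passes cholesterol to lipid-poor apolipoproteins, was raised in Th1 cultures. Libraries 1 to 5 of Th0 WT held 6.83, 3.35, 5.18, 8.06 and 1.14 CPM of Abca1, those of Th1 WT 82.1, 32.4, 107.1, 73.4 and 10.8 CPM. Each Th1 WT library lay above every Th0 WT library, and library 5 was the lowest of both groups. The log2 fold change of Abca1, Th1 against Th0, was 3.64 ± 0.58 (SE) in WT, and it passed edgeR's quasi-likelihood test (adjusted p 1.05e-04).

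The rise was of much the same size in the other genotypes. Abca1 stood at 7.28 ± 3.89 CPM (SD, n = 5) in Th0 KO and 90.5 ± 12.6 CPM (SD, n = 5) in Th1 KO, a log2 fold change of 3.64 ± 0.58 (SE). In KI it stood at 8.19 ± 4.23 CPM (SD, n = 4) and 94.9 ± 24.6 CPM (SD, n = 5), a log2 fold change of 3.53 ± 0.63 (SE). The libraries of Th1 did not overlap with those of Th0 in either genotype, and both changes passed (adjusted p 5.50e-05 and 5.19e-04 by edgeR). Under each alternative run, including leaving out each library, these 3 calls held.

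In Treg cultures Abca1 varied widely between libraries. Treg WT libraries 1 to 5 held 41.1, 48.03, 5.12, 9.79 and 39.2 CPM, Treg KO libraries 17.2, 4.52, 11.3, 6.10 and 13.6 CPM, and Treg KI libraries 34.97, 43.2, 13.7, 60.04 and 16.9 CPM. Against Th0, Abca1 rose by 2.54 ± 0.55 (SE, log2) in WT and by 2.04 ± 0.59 in KI (adjusted p 4.48e-04 and 0.00615 by edgeR), although the libraries overlapped. In KO the log2 fold change was 0.54 ± 0.52 with an adjusted p of 0.469 by edgeR. Against Th1, Abca1 fell by 3.10 on the log2 scale in KO and by 1.49 in KI (adjusted p 5.58e-05 and 0.0271 by edgeR), and in WT it differed by -1.10 ± 0.52 (adjusted p 0.111). The fall in KI was lost without Treg KI 3, Treg KI 5 or Th1 KI 2 (highest adjusted p 0.0710 by edgeR).

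Abcg1 (ENSMUSG00000024030, chromosome 17, 31057675 to 31117988, plus strand, GRCm38), which exports cholesterol to high-density lipoprotein, was raised in Treg cultures. Libraries 1 to 5 measured 11.4, 9.27, 7.66, 6.62 and 3.38 CPM in Th0 WT libraries, 15.1, 8.76, 13.03, 12.02 and 4.39 CPM in Th1 WT, and 103.5, 58.3, 25.8, 13.3 and 38.6 CPM in Treg WT. All Treg WT libraries lay above all Th0 WT libraries, while Treg WT 4 lay below the highest Th1 WT library. Its log2 fold change, Treg against Th0, was 2.64 ± 0.44 (SE) in WT, 3.23 ± 0.45 in KO and 3.04 ± 0.49 in KI, with adjusted p of 1.63e-05, 1e-06 and 9.31e-06 by edgeR.

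Against Th1 the rise of Abcg1 was 2.17 ± 0.43, 2.27 ± 0.43 and 2.19 ± 0.43 (SE, log2) in WT, KO and KI, with adjusted p of 2.05e-04, 1.15e-04 and 1.45e-04 by edgeR. Between Th1 and Th0, Abcg1 differed by 0.48, 0.97 and 0.84 on the log2 scale and passed in none of the 3 genotypes (lowest adjusted p 0.138 by edgeR). Treg KO libraries 1 to 5 held 83.4, 12.1, 85.0, 63.4 and 93.9 CPM and Treg KI libraries 88.7, 100.2, 26.5, 85.0 and 111.6 CPM. The lowest of each, Treg KO 2 and Treg KI 3, were also low in Foxp3.

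**Figure D1:**
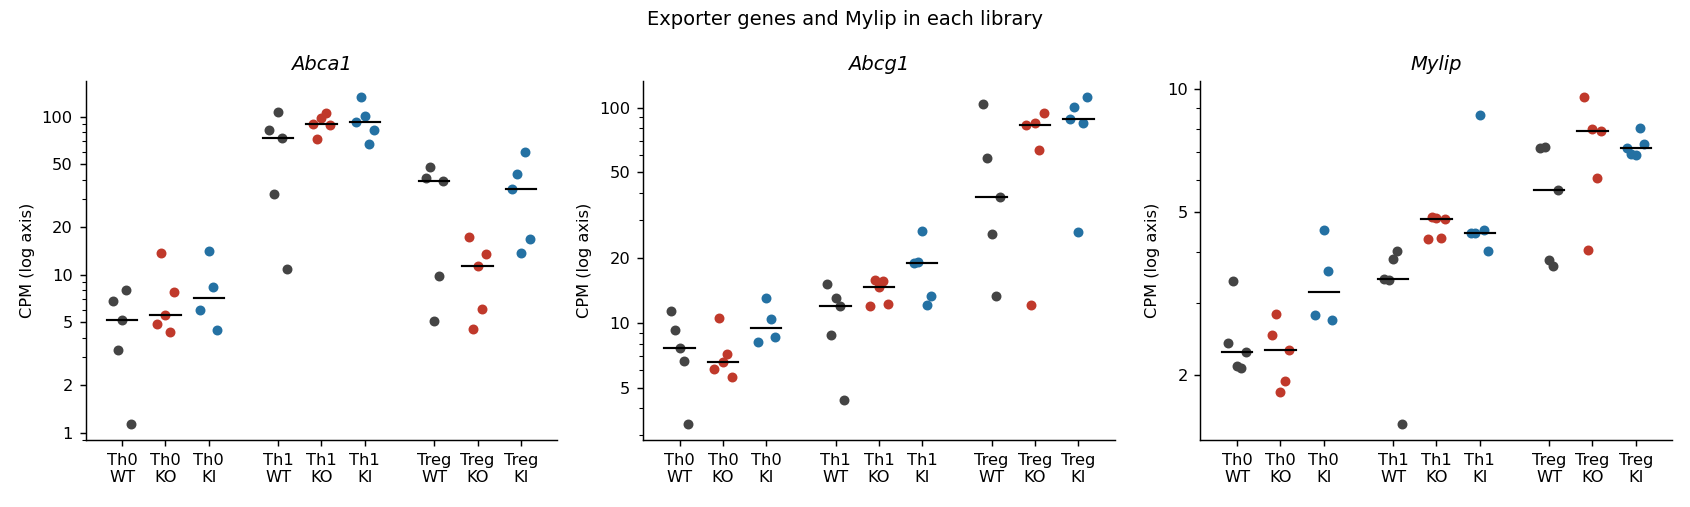
CPM on log axes of Abca1, Abcg1 and Mylip in every library of the 9 groups (points, coloured by genotype and placed from left to right by library number; bars, group medians). By group mean, Abca1 was highest in Th1 cultures, with libraries at 10.8 to 132.4 CPM, and Abcg1 in Treg cultures, at 12.1 to 111.6 CPM. In WT the Th1 and Treg libraries overlapped for both genes.

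Some markers of myeloid and dendritic cells moved with culture as well. The summed level of 8 such markers ran from 5.82 to 15.3 CPM in Th0 WT and from 5.40 to 11.4 CPM in Th1 WT. It ran from 19.6 to 57 CPM in Treg WT, above both. In KO, Th0 and Treg overlapped, at 6.15 to 12.2 CPM and 11.6 to 27.5 CPM. The cultures also overlapped in KI, where Th1 reached 24.7 CPM and Treg ran from 10.6 to 41.8 CPM. The highest Th0 KI library also lay within the Treg KI range. Of these 8 markers, 3 rose in Treg against Th0 in each genotype, beside 17.4%, 17.1% and 16.7% of all genes in WT, KO and KI. These were S100a8 and Lyz2 in all 3 genotypes, with Itgam in WT and KO and Csf1r in KI. S100a8 was at 0 in all Th0 KO libraries. Between Th1 and Th0, 0 of the 8 rose in any genotype, beside 3.04%, 9.51% and 5.92% of all genes in either direction. Their part in the levels of Abca1 and Abcg1 was not tested.

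Mylip rose in Treg cultures of all 3 genotypes. It measured 2.40, 3.40, 2.11, 2.08 and 2.27 CPM in libraries 1 to 5 of Th0 WT, and 7.16, 7.199, 3.82, 3.69 and 5.67 CPM in Treg WT. Each Treg WT library was above each Th0 WT library. The log2 fold change of Mylip, Treg against Th0, was 1.17 ± 0.24 (SE) in WT, 1.64 ± 0.24 in KO and 1.09 ± 0.25 in KI, with adjusted p of 2.12e-04, 1.94e-06 and 9.22e-04 by edgeR, and the 2 cultures did not overlap in any genotype.

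In Th1 cultures Mylip took values in between. Th1 WT libraries held 3.42, 3.41, 3.84, 4.01 and 1.51 CPM, Th1 KO libraries 4.29, 4.85, 4.84, 4.32 and 4.81 CPM, and Th1 KI libraries 4.44, 4.44, 8.64, 4.53 and 4.01 CPM. Against Th0, Mylip rose by 1.02 ± 0.24 (SE, log2) in KO (adjusted p 0.00435 by edgeR), while 0.40 ± 0.24 in WT and 0.61 ± 0.25 in KI did not pass. Against Th1, the Treg level was higher by 0.76 ± 0.24 in WT and 0.62 ± 0.23 in KO (adjusted p 0.0120 and 0.0421 by edgeR), and 0.48 ± 0.23 in KI did not pass. The WT call was lost without the libraries numbered WT 5 (adjusted p 0.0788 by edgeR) and the KO call in 9 of 18 alternatives (highest adjusted p 0.177 by edgeR). Stard4, whose product carries cholesterol between membranes inside the cell, differed by at most 0.28 on the log2 scale in any culture comparison and passed in none.

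The counts for the whole set were small in Th1 cultures. Between Th1 and Th0, 1 of 32 genes passed in WT, 3 in KO and 2 in KI, against 3.04%, 9.51% and 5.92% of all genes tested. These were Abca1 in all 3 genotypes, with Mylip higher and Idi1 lower in KO and Elovl6 higher in KI. Over the 30 genes other than the exporters, the median log2 fold change was -0.0251 in WT, 0.0135 in KO and 0.0254 in KI, beside -0.0095, 0.013 and -0.020 over all genes. With the library number as a block the counts were 2, 7 and 3 (6.25%, 21.9% and 9.38% of the set), against 7.15%, 18.2% and 10.9% of all genes. Fitted on the groups compared alone, the KO count was 10 (31.2%, against 20.2% of all genes). The WT count was also 2 without Th1 WT 5.

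More of the set passed in Treg cultures, as did more of all genes. Against Th0, 8 of 32 genes passed in WT (4 higher, 4 lower), 11 in KO (9 higher, 2 lower) and 7 in KI (4 higher, 3 lower). These are 25%, 34.4% and 21.9% of the set, against 33.1%, 33% and 33.6% of all genes tested. Over all genes 17.4%, 17.1% and 16.7% were higher and 15.7%, 15.9% and 16.9% lower. The median over the 30 genes was -0.118 in WT, 0.214 in KO and 0.0242 in KI on the log2 scale. With the library number as a block 14 passed in WT (6 higher, 8 lower) and 12 in KI (8 higher, 4 lower), which are 43.8% and 37.5% of the set against 40.4% and 39.3% of all genes. In KO 16 passed with the block (50%, against 40.4% of all genes). Fitted on the groups compared alone, 5, 18 and 7 passed in WT, KO and KI, which are 15.6%, 56.2% and 21.9% against 26.3%, 39.7% and 33.8% of all genes. Without Treg WT 3, 13 passed in WT.

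Against Th1, 5 genes passed in Treg WT (3 higher, 2 lower), 10 in Treg KO (8 higher, 2 lower) and 7 in Treg KI (4 higher, 3 lower). These are 15.6%, 31.2% and 21.9% of the set, against 30.8%, 30% and 32.8% of all genes tested. Over all genes 15.6%, 15% and 17% were higher and 15.2%, 15% and 15.8% lower. With the library number as a block 9, 13 and 12 passed in WT, KO and KI, which are 28.1%, 40.6% and 37.5% against 37.3%, 36.7% and 39.9% of all genes. Fitted on the groups compared alone, 2, 17 and 12 passed in WT, KO and KI, which are 6.25%, 53.1% and 37.5% against 16.7%, 38.2% and 40.7% of all genes. The share of the set lay above or below that of all genes depending on the genotype and the fit. Without Treg WT 3 the WT count was 9, without Treg WT 4 it was 8, and without Treg KI 3 the KI count was 11. In each genotype the Th1 and Treg comparisons with Th0 share the Th0 libraries.

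**Figure D2:**
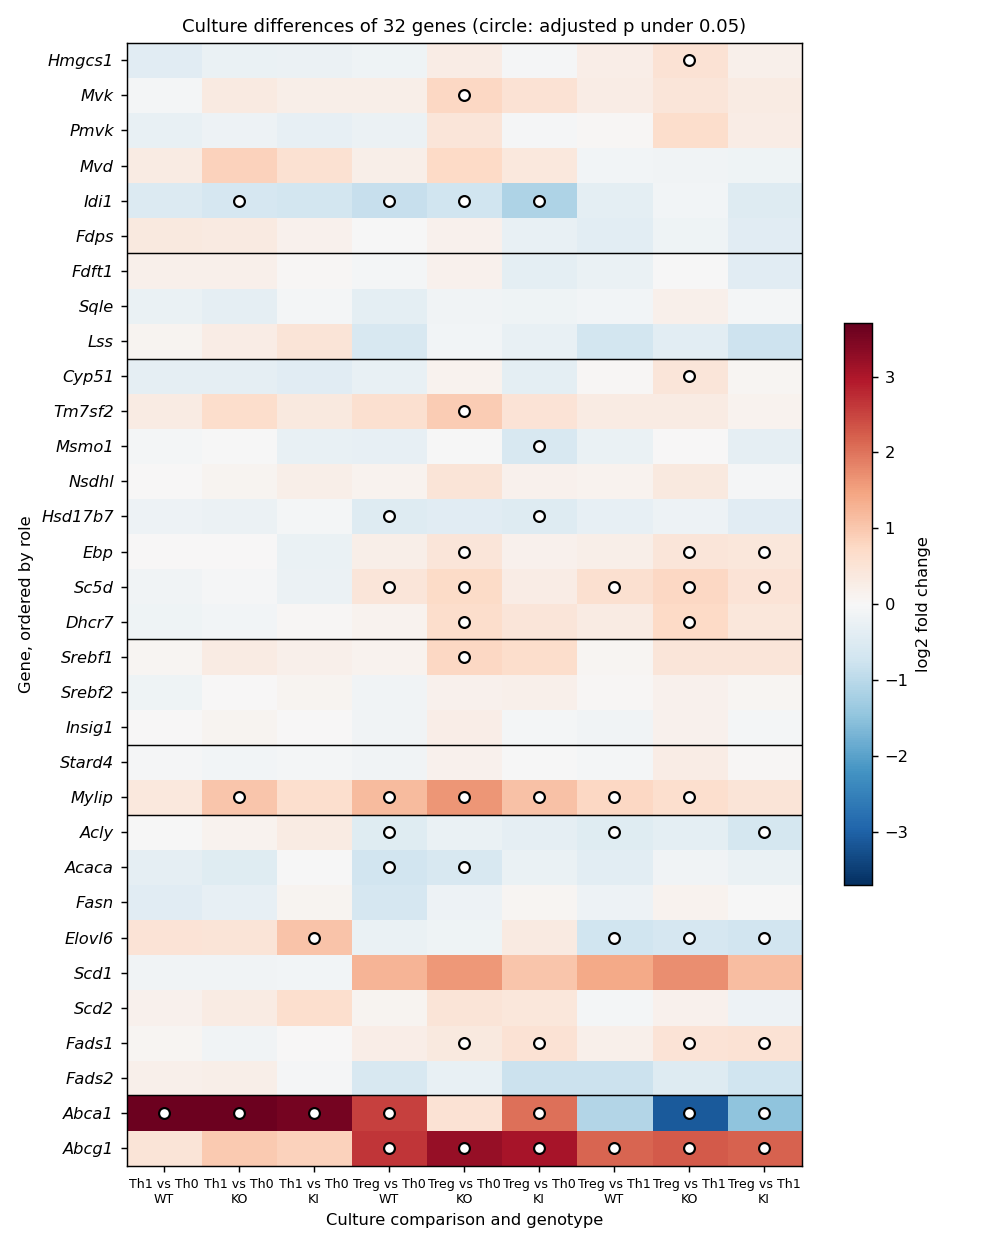
Log2 fold changes of the 32 genes (rows, ordered by role) in the 9 culture comparisons (columns), in colour, with a circle where the adjusted p by edgeR was under 0.05. The exporters in the bottom 2 rows range from -3.10 to 3.64, while the other rows stay between -1.14 and 1.73.

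Among the 6 genes of the mevalonate branch, which leads from acetyl-CoA to farnesyl diphosphate, Idi1 was the one that fell in Treg cultures of all 3 genotypes. Idi1 (ENSMUSG00000058258, chromosome 13, 8885501 to 8892451, plus strand, GRCm38) measured 469, 476, 383, 368 and 536 CPM in libraries 1 to 5 of Th0 WT and 225, 167, 384, 297 and 163 CPM in Treg WT. In KO the values were 411, 304, 471, 552 and 566 CPM in Th0 and 223, 375, 248, 288 and 239 CPM in Treg. Treg WT 3 and Treg KO 2, both low in Foxp3, reached into the Th0 range.

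In KI the Idi1 values were 573, 494, 485 and 483 CPM in Th0 libraries 1, 3, 4 and 5, and 245, 185, 332, 204 and 190 CPM in Treg libraries 1 to 5, with no overlap. Idi1 fell by 0.85 in WT, 0.75 in KO and 1.14 in KI on the log2 scale, with adjusted p of 0.00137, 0.00438 and 8.74e-05 by edgeR. In Th1 cultures it stood at 317 ± 73.05 CPM in WT, 297 ± 65.2 CPM in KO and 319 ± 45.9 CPM in KI (SD, n = 5 each). Against Th0 that fall passed in KO, at -0.63 ± 0.21 (SE, adjusted p 0.0427 by edgeR), and was lost there in 10 of 18 alternatives, without Th1 KO 2 among them (adjusted p 0.163), and the differences of -0.49 in WT and -0.67 in KI did not pass (adjusted p 0.225 and 0.0550 by edgeR).

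Hmgcs1, which makes HMG-CoA, passed in no comparison of Th1 or Treg with Th0. Its mean was nonetheless lower in Th1 than in Th0, at 69.7 against 92.3 CPM per kb in WT. In KO it was 71.3 against 85.4, and in KI 68.9 against 80.8 CPM per kb. Its libraries 1 to 5 held 405, 533, 400, 388 and 395 CPM in Th0 WT libraries, 305, 330, 319, 354 and 293 CPM in Th1 WT, and 379, 232, 579, 544 and 179 CPM in Treg WT. The Th1 WT libraries lay below the Th0 WT libraries and within the wide range of Treg WT. Of its 9 culture comparisons 1 passed, Treg KO against Th1 KO at 0.54 ± 0.20 (SE, log2, adjusted p 0.0361 by edgeR), and it was lost in 10 of 18 alternatives (highest adjusted p 0.204). Mvk, mevalonate kinase, passed in Treg KO against Th0 KO, at 0.77 ± 0.29 (adjusted p 0.0390 by edgeR), and was lost in 10 of 18 alternatives. Pmvk, Mvd and Fdps passed in none of the 9, with log2 fold changes from -0.42 to 0.85.

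The 3 genes that lead from farnesyl units through squalene to lanosterol, Fdft1, Sqle and Lss, passed in no culture comparison. Sqle, squalene epoxidase, measured 159, 170, 162, 150 and 129.3 CPM in Th0 WT libraries, 130, 131.6, 132.5, 136.3 and 120.8 CPM in Th1 WT, and 124.4, 74.6, 178, 161 and 64.2 CPM in Treg WT. Treg WT held both the highest and the lowest of these 15 values. With the library number as a block Sqle was lower in Treg WT than in Th0 WT (-0.43, adjusted p 0.0282 by edgeR), as was Lss, lanosterol synthase (-0.90, adjusted p 0.00407), which without the block differed by -0.58 ± 0.33 (adjusted p 0.184).

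Of the 8 enzymes that turn lanosterol into cholesterol, Sc5d was raised most steadily in Treg cultures. Sc5d (ENSMUSG00000032018, chromosome 9, 42251595 to 42264256, minus strand, GRCm38), lathosterol oxidase, held 81.7, 85.3, 83.2, 82.03 and 79.7 CPM in Th1 WT and 126.2, 106.9, 168, 112.03 and 102.8 CPM in Treg WT. These groups did not overlap. The log2 fold change of Sc5d, Treg against Th1, was 0.58 ± 0.11 (SE) in WT, 0.77 ± 0.11 in KO and 0.49 ± 0.11 in KI, with adjusted p of 1.38e-04, 2.26e-06 and 7.36e-04 by edgeR.

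Against Th0, Sc5d rose by 0.44 ± 0.11 in WT and 0.72 ± 0.11 in KO (adjusted p 0.00218 and 5.52e-06 by edgeR; the former 0.0579 when fitted on the groups compared alone), and 0.28 ± 0.12 in KI did not pass (adjusted p 0.0638). In KO its libraries held 84.8, 78.8, 86.9, 87.1 and 94.4 CPM in Th0 and 140, 148, 143.5, 144.9 and 133.99 CPM in Treg, well apart. Sc5d and Idi1, both enzymes of one pathway, thus moved in opposite directions in Treg WT and Treg KO.

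Ebp, the sterol isomerase, and Dhcr7, which makes the last reduction to cholesterol, were also higher in Treg KO. Ebp stood at 44.6 ± 5.03 CPM in Th0 KO, 45.004 ± 2.96 CPM in Th1 KO and 61.3 ± 9.97 CPM in Treg KO (SD, n = 5 each). It rose by 0.46 ± 0.10 against Th0 KO and by 0.45 ± 0.10 against Th1 KO (SE, log2, adjusted p 6.08e-04 and 9.64e-04 by edgeR). In KI it rose against Th1 by 0.41 ± 0.10 (adjusted p 0.00211 by edgeR), from 40.3, 44.9, 32.5, 42.9 and 42.3 CPM to 56.2, 56.4, 47.98, 53.5 and 54.7 CPM, with no overlap. In WT the 2 differences of Ebp were 0.21 each and did not pass.

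Dhcr7 measured 60.8, 67.1, 58.5, 61.9 and 63.5 CPM in Th0 KO, 57.6, 46.99, 68.8, 59.3 and 60.1 CPM in Th1 KO, and 93.9, 91.0, 98.7, 101.9 and 102.4 CPM in Treg KO. The Treg KO libraries lay above all 10 others. It rose by 0.65 ± 0.20 against Th0 KO and 0.74 ± 0.20 against Th1 KO (SE, log2, adjusted p 0.0100 and 0.00411 by edgeR). In WT, where Treg libraries held 77.2, 40.2, 90.4, 91.5 and 35.6 CPM, its differences of 0.13 and 0.30 did not pass.

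The other enzymes of this group passed in at most 2 comparisons each. Hsd17b7, a keto-reductase, was lower in Treg WT and Treg KI than in Th0, by -0.48 in each (adjusted p 0.0302 and 0.0383 by edgeR), calls lost in 8 of 18 and 8 of 17 alternatives. Msmo1, a methyl oxidase, was lower in Treg KI, at -0.61 ± 0.22 (SE, adjusted p 0.0316 by edgeR), a call lost without Th0 KI 1 (adjusted p 0.163) and in 6 of the 16 other alternatives. Tm7sf2, a sterol reductase, was higher in Treg KO than in Th0 KO, at 0.95 ± 0.26 (adjusted p 0.00468), and Cyp51, lanosterol demethylase, was higher in Treg KO than in Th1 KO, at 0.45 ± 0.17 (adjusted p 0.0480), which 16 of 18 alternatives lost. Nsdhl passed in none.

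The regulators changed little on average. Srebf2, which encodes the SREBP most tied to cholesterol genes, held 296, 286, 371, 323 and 194 CPM in Th0 WT and 339, 211, 236, 384 and 185 CPM in Treg WT, and its 9 culture differences lay between -0.15 and 0.19 on the log2 scale. Insig1, which retains the SREBP complex in the endoplasmic reticulum, held 151, 160, 153, 158 and 120 CPM in Th0 WT libraries, 150, 137.3, 169, 180 and 111.8 CPM in Th1 WT, and 146, 89.4, 187, 161 and 98.8 CPM in Treg WT. Library 5 was the lowest or next to lowest of each of these groups.

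Srebf1, whose products drive fatty acid genes, passed in 1 comparison. It measured 95.8, 78.3, 70.8, 75.9 and 42.1 CPM in Th0 KO and 120, 98.0, 130, 118.5 and 146 CPM in Treg KO, without overlap. The log2 fold change was 0.76 ± 0.26 (SE, adjusted p 0.0236 by edgeR), and the call was lost without Th0 KO 5, Th0 KO 3, Treg KO 3 or Treg KO 5 (highest adjusted p 0.0873). In KI the same difference was 0.64 ± 0.28 (adjusted p 0.0741) and in WT, where Treg libraries held 114, 59.03, 68.1, 133.7 and 43.3 CPM, 0.14 ± 0.26 (adjusted p 0.714).

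Acly and Acaca make the substrates of fatty acid synthase, and both passed as lower in some comparisons of Treg cultures. Acly measured 579, 518, 636, 576 and 423 CPM in Th0 WT libraries, 588, 521, 610, 666 and 344 CPM in Th1 WT, and 383, 263, 505, 593 and 261 CPM in Treg WT, which overlapped with both. It differed by -0.45 ± 0.17 against Th0 and -0.44 ± 0.17 against Th1 in WT (SE, log2, adjusted p 0.0394 and 0.0427 by edgeR) and by -0.66 ± 0.17 against Th1 in KI (adjusted p 0.00247). Without Treg WT 2 the WT differences had adjusted p of 0.174 and 0.162 by edgeR, and without Treg WT 5 of 0.129 and 0.160. Over all 18 alternatives the 2 WT calls were lost in 10 and 8 (highest adjusted p 0.174 and 0.25 by edgeR, the latter when fitted on the groups compared alone).

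Acaca, acetyl-CoA carboxylase, held 251, 263, 270, 275 and 227 CPM in Th0 WT and 156, 115.04, 185, 229 and 100.5 CPM in Treg WT, where Treg WT 4 alone reached the lowest Th0 value. In KO its libraries held 274, 231, 251, 230 and 264 CPM in Th0 and 168, 188, 123.6, 197 and 154 CPM in Treg, with no overlap. It fell by 0.71 in WT and by 0.59 in KO on the log2 scale (adjusted p 4.49e-04 and 0.00277 by edgeR), and the -0.25 of KI did not pass. Fasn, fatty acid synthase, passed in none of the 22 comparisons. Its Th0 WT libraries held 476, 594, 713, 673 and 402 CPM, those of Th1 WT 381, 574, 386, 573 and 229 CPM, and those of Treg WT 438, 252, 289, 668 and 223 CPM, overlapping throughout, although each numbered library was lower in Th1 WT and in Treg WT than in Th0 WT. With the library number as a block Fasn fell by 0.69 on the log2 scale in Treg WT against Th0 WT (adjusted p 0.0133 by edgeR), a difference that also passed by DESeq2 (adjusted p 0.0466) and with log2 Cd8a in the model (adjusted p 0.0261 by edgeR). Its blocked difference of -0.46 ± 0.22 (SE, log2) in Th1 WT did not pass (adjusted p 0.222 by edgeR).

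Elovl6, which lengthens palmitate, was highest in Th1 cultures. In WT its libraries held 68.7, 63.3, 101.3, 97.1 and 48.6 CPM in Th0, 126.7, 81.1, 130, 135.2 and 61.1 CPM in Th1, and 63.9, 47.9, 88.9, 76.8 and 45.4 CPM in Treg. Each numbered library was higher in Th1 WT than the same number in Th0 WT and in Treg WT. From Th1 to Treg, Elovl6 fell by 0.72 in WT, 0.62 in KO and 0.70 in KI on the log2 scale (adjusted p 0.00298, 0.0103 and 0.00339 by edgeR). From Th0 to Th1 it rose by 1.05 ± 0.20 (SE) in KI (adjusted p 0.00135 by edgeR), while 0.49 in WT and 0.46 in KO did not pass (adjusted p 0.164 and 0.108), and both passed with the library number as a block (adjusted p 0.00802 and 0.00517 by edgeR).

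Of the 4 desaturase genes, Fads1 was the one that passed. Fads1, the delta-5 desaturase of polyunsaturated fatty acids, held 80.02, 80.8, 75.9, 80.2 and 80.5 CPM in Treg KO, above its 61.03, 69.4, 57.9, 54.2 and 64.5 CPM in Th0 KO. It rose by 0.37 ± 0.15 in KO and 0.53 ± 0.16 in KI against Th0, and by 0.49 ± 0.15 and 0.52 ± 0.15 against Th1 (SE, log2, adjusted p 0.0479, 0.00746, 0.00958 and 0.00570 by edgeR), and the first of these calls was lost in 14 of 18 alternatives. Fads2, the delta-6 desaturase beside it on chromosome 19, differed by -0.79 to 0.21 on the log2 scale and passed in none, and Scd2 by -0.20 to 0.62.

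Scd1, which like Scd2 desaturates stearic acid, had the widest spread. In Treg WT its libraries 1 to 5 held 192, 40.6, 923, 775 and 19.7 CPM, in Treg KO 308, 935, 281, 462 and 353 CPM, and in Treg KI 277, 182, 723, 130 and 130 CPM. The 4 values from 723 to 935 CPM were those of the libraries low in Foxp3. The libraries numbered WT 4, KO 2 and KI 3 also held the most Scd1 of their groups in the other cultures. They held 306, 271 and 215 CPM in Th0, and 310, 190 and 290 CPM in Th1. Foxp3 in those Th0 and Th1 libraries ran from 0.861 to 2.09 CPM. The log2 fold changes of Scd1, Treg against Th0, of 1.26 ± 0.70 in WT, 1.59 ± 0.70 in KO and 1.04 ± 0.74 in KI (SE) did not pass (lowest adjusted p 0.0782 by edgeR).

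**Figure D3:**
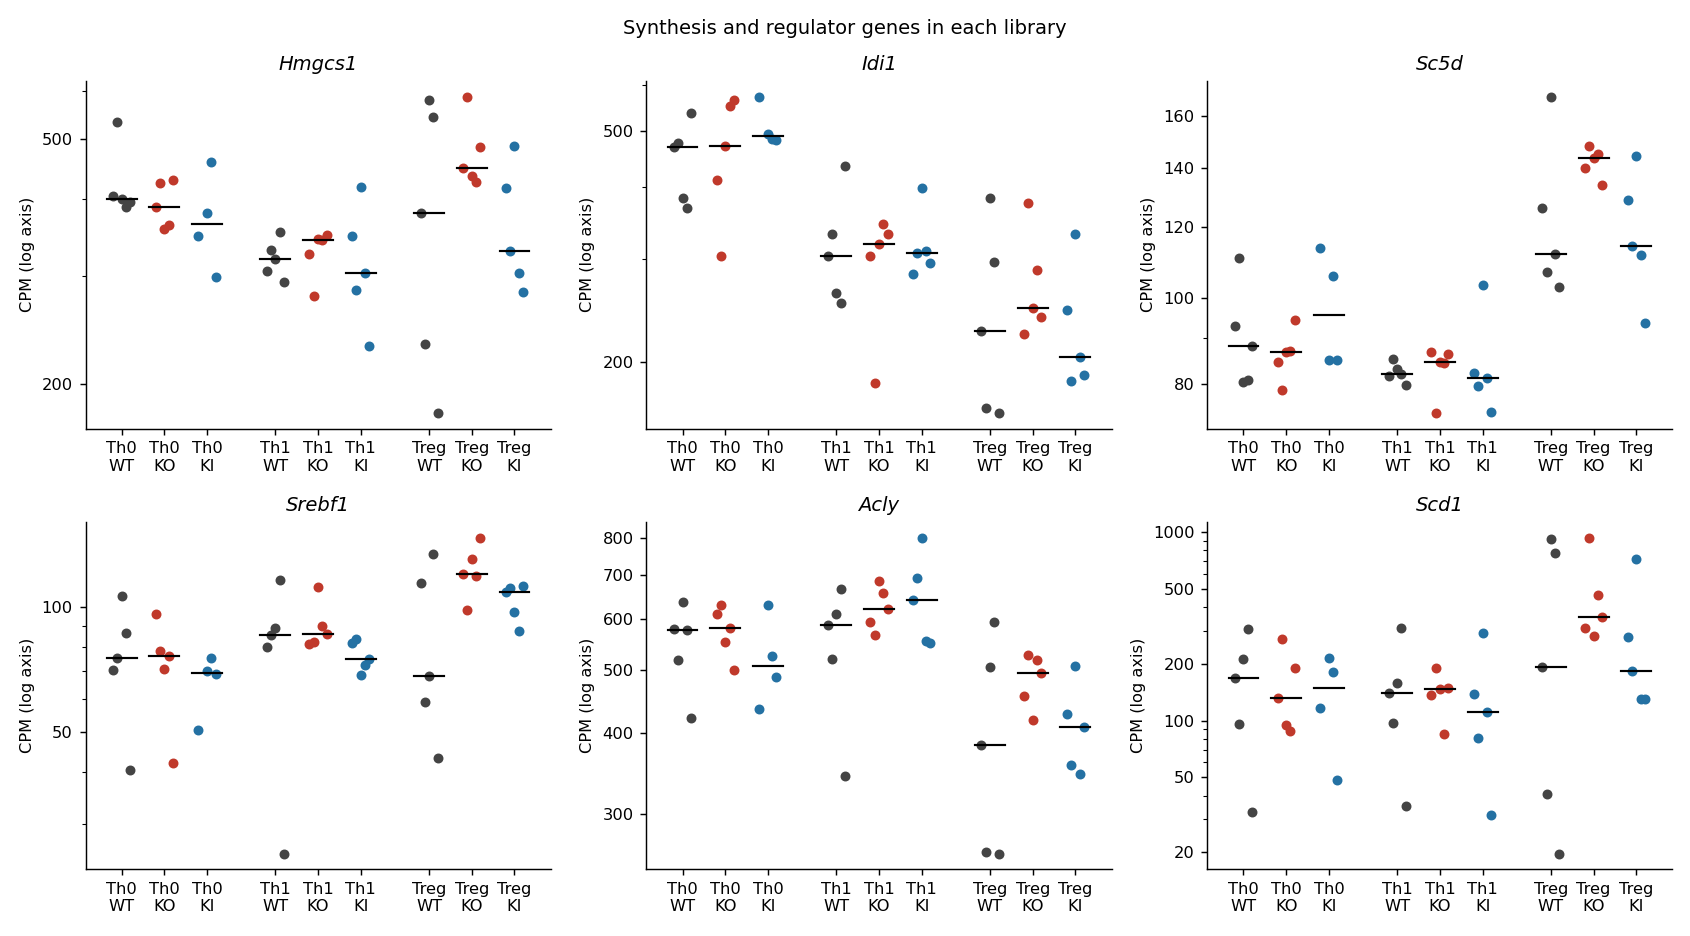
CPM on log axes of 6 synthesis and regulator genes in every library (points, coloured by genotype and placed from left to right by library number; bars, group medians). By group mean, Idi1 is lower in Treg than in Th0 cultures and Sc5d higher, while Scd1 in Treg WT spans 19.7 to 923 CPM. The Sc5d difference did not pass in KI, and the Idi1 libraries of Treg and Th0 overlap in WT and KO.

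No member passed between genotypes in any culture by edgeR, nor by DESeq2. Between KO and WT, 0 of 32 passed in Th0, 0 in Th1 and 0 in Treg, against 0.0%, 0.0% and 0.169% of all genes tested. At an unadjusted p under 0.05 there were 0, 1 and 8. Between KI and WT the counts were also 0 in each, against 0.512%, 0.0274% and 0.0%, with 3, 1 and 0 at an unadjusted p under 0.05. Between KI and KO they were 0, against 0.0%, 0.0% and 0.0229%, with 4, 1 and 6. For the 4 contrasts of a KO or KI effect in Th1 or Treg with that in Th0 the counts were 0, against 0.0% of all genes in each, with 0, 1, 1 and 2 at an unadjusted p under 0.05. The shares of all genes given here are at the adjusted threshold. The share of all genes at an unadjusted p under 0.05 was not computed, so nothing is read from the unadjusted counts.

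The estimates for KO against WT in Treg leaned one way. For all 30 genes other than the exporters the estimate was above 0, from 0.08 for Acaca to 0.67 for Pmvk, and the median was 0.362, beside -0.0058 over all genes. These genes co-varied between libraries, with a median Pearson r of 0.89 between sterol synthesis genes in Treg. Their signs are thus not separate observations. In Th0 cultures 17 of the 30 were above 0, with a median of 0.0362, and in Th1 cultures 24, with a median of 0.122. Without Th1 WT 5 the Th1 median was 0.00192, with 16 above 0, and without the libraries numbered WT 5 it was -0.00159, with 14 above 0. The lowest adjusted p was that of Stard4, at 0.45 ± 0.12 (SE, log2, adjusted p 0.111 by edgeR). Stard4 passed without Treg WT 3 (0.61 ± 0.11, adjusted p 0.00341) and when log2 Cd8a entered the model (0.48 ± 0.11, adjusted p 0.0254).

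For Fads1, the 5 Treg KO libraries, at 75.9 to 80.8 CPM, lay just above all 5 Treg WT libraries, at 47.4 to 75.8 CPM. Its adjusted p was 0.400 by edgeR. No other of the 30 genes had libraries that did not overlap in this comparison. The share of all genes without overlap was not computed, so nothing is read from this separation. The lean of the 30 genes moved with single WT libraries. Its median was 0.184 without Treg WT 2, 0.197 without Treg WT 5 and 0.490 without Treg WT 3. Leaving out the libraries numbered WT 5 in all cultures gave 0.200, with 28 of 30 above 0.

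Abca1 went against the other 30 in that comparison. Treg KO libraries, at 4.52 to 17.2 CPM, overlapped with those of Treg WT, at 5.12 to 48.03 CPM, and the log2 fold change was -1.44 ± 0.53 (SE, adjusted p 0.304 by edgeR, unadjusted 0.00989). Over the alternatives it stayed between -1.72 and -1.16. The difference of the KO effect on Abca1 between Treg and Th0 was -2.01 ± 0.75 (adjusted p 0.777 by edgeR). Abcg1 differed by 0.50 ± 0.41 between KO and WT in Treg. Between KI and KO in Treg, which shares the KO libraries, the median of the 30 genes was -0.279 and Abca1 stood at 1.68 ± 0.53 (adjusted p 0.376 by edgeR).

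Between KI and WT in Th0, all 8 fatty acid genes were estimated lower in KI than in WT, with a median of -0.228, as were the 3 regulators, while 9 of 17 sterol synthesis genes were above 0. None of these differences passed. Acaca measured 127.8, 183, 250 and 200 CPM in Th0 KI libraries 1, 3, 4 and 5, against 227 to 275 CPM in Th0 WT, a log2 difference of -0.44 ± 0.16 (SE, adjusted p 0.170 by edgeR), and passed without Th0 KI 4 (adjusted p 0.0404). Elovl6 stood at 43.7, 59.7, 57.2 and 59.5 CPM in Th0 KI, below all 5 Th0 KO libraries (80.2 to 98.4 CPM), at -0.66 ± 0.20 against KO (adjusted p 0.178 by edgeR).

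**Figure D4:**
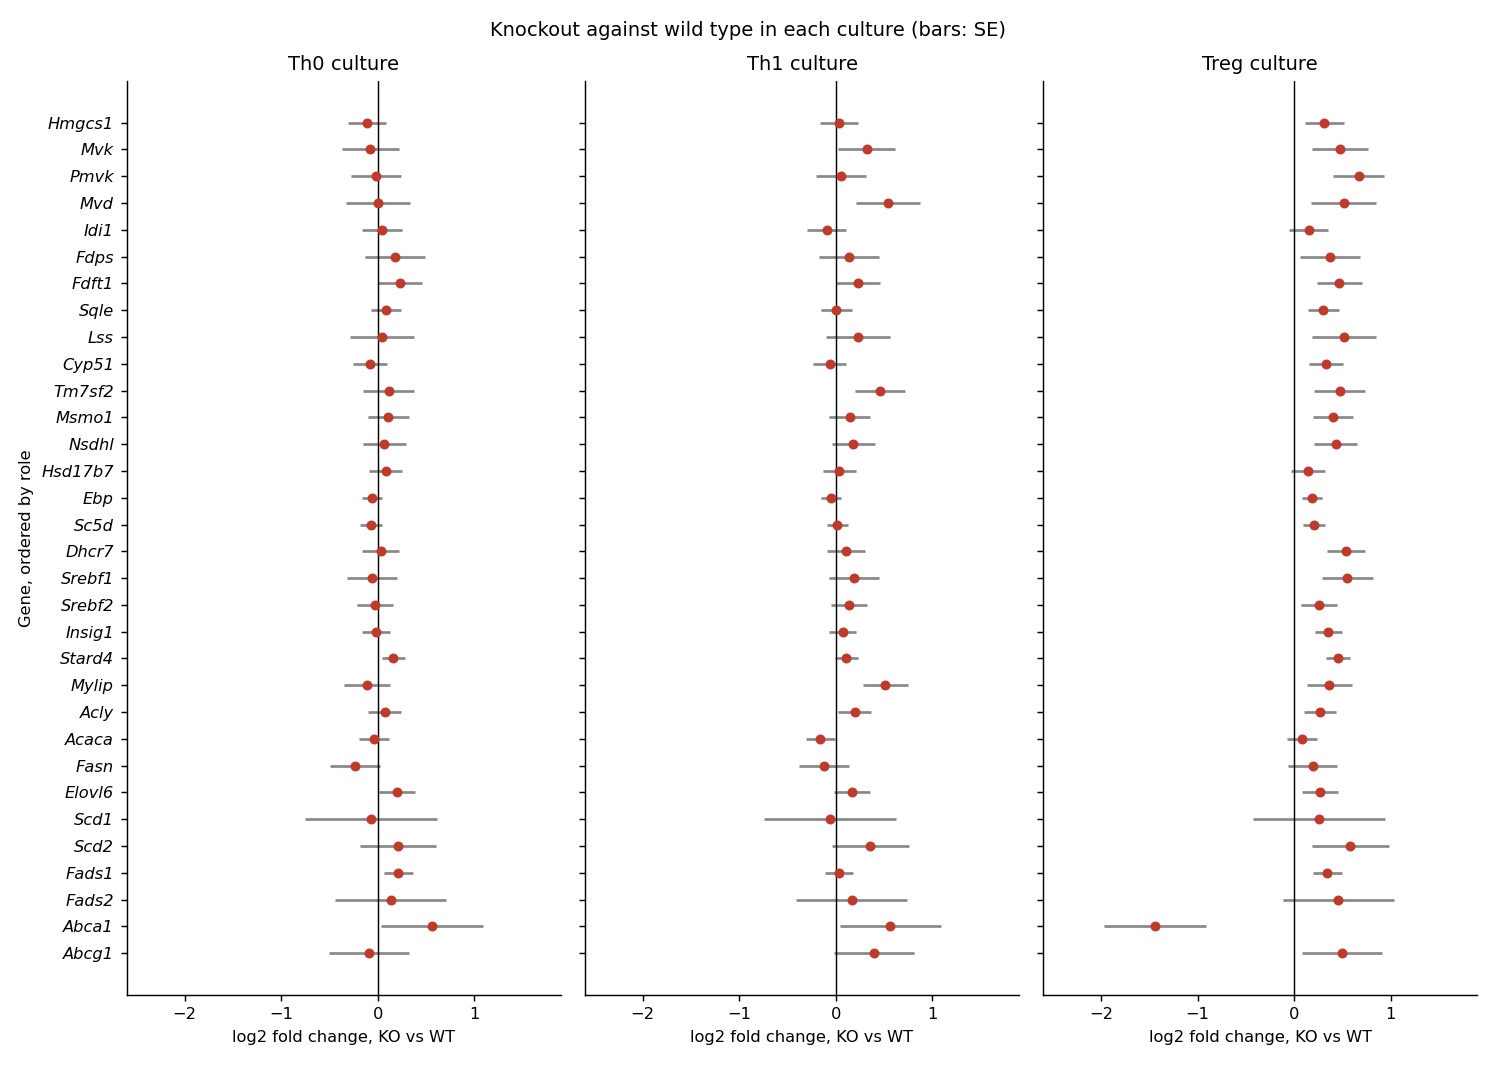
Log2 fold changes of the 32 genes (rows), KO against WT, in Th0, Th1 and Treg cultures, with bars for the SE of each estimate. In Treg all 30 genes other than the exporters lie above 0 with a median of 0.362, Abca1 lies at -1.44, and no gene passed the test. The 30 genes co-vary between libraries, so their signs are not separate observations.

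Within groups, some libraries stood high or low for most of the set, while others were mixed. After subtracting each group's mean of log2(CPM + 0.5), libraries were compared by their median deviation over the 30 genes. Th0 WT 5, Th1 WT 5 and Treg WT 5 had medians of -0.39, -0.62 and -0.78, and were the lowest library of their group for 24, 23 and 25 of the 30 genes. Treg WT 2 stood at -0.60, Treg WT 3 and Treg WT 4 at 0.56 and 0.58, and Treg KI 3 at 0.38. Th1 WT 4 and Th1 KI 3 stood at 0.34 and 0.31 and were each the highest library of their group for 24 of the 30 genes. The 5 Treg KO libraries stayed between -0.07 and 0.15.

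The co-variation within the set differed between cultures. Over the 44 libraries, which share the deviations just described, pairs of sterol synthesis genes had a median Pearson r of 0.71, with a lowest of -0.035. Within cultures their median r was 0.25 over 14 Th0 libraries (lowest -0.72), 0.60 over 15 Th1 libraries (lowest -0.60) and 0.89 over 15 Treg libraries (lowest 0.064). Over the 44 libraries, pairs of fatty acid genes had a median of 0.66, and pairs of a sterol with a fatty acid gene 0.62. Srebf1 and Srebf2 correlated at 0.94. Ebp and Mylip followed the others least, with a median r of 0.12 and 0.0017, and Idi1 had 0.33. These values describe the libraries, and depth, cell makeup and a shared number can all enter them.

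The exporters followed the synthesis genes in 2 cultures and ran against them in Treg. The median r of the 30 genes with Abca1 was 0.54 over 14 Th0 libraries, 0.64 over 15 Th1 libraries and -0.68 over 15 Treg libraries. With Abcg1 it was 0.55, 0.72 and -0.45. Abca1 and Abcg1 correlated with each other at 0.75, 0.85 and 0.69.

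The same was visible in single Treg libraries. Treg WT 3, Treg WT 4, Treg KO 2 and Treg KI 3 held 5.12, 9.79, 4.52 and 13.7 CPM of Abca1 and 25.8, 13.3, 12.1 and 26.5 CPM of Abcg1, beside 923, 775, 935 and 723 CPM of Scd1. Their Foxp3 was the lowest of the 15 Treg libraries, and their Cd8a measured 23.9, 443, 73.1 and 318 CPM, against 4.16 to 18.4 CPM in the other Treg libraries. Treg WT 2 and Treg WT 5, at the other end, held 40.6 and 19.7 CPM of Scd1 with 519 and 596 CPM of Foxp3. The part of cell makeup in these values was not tested.

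**Figure D5:**
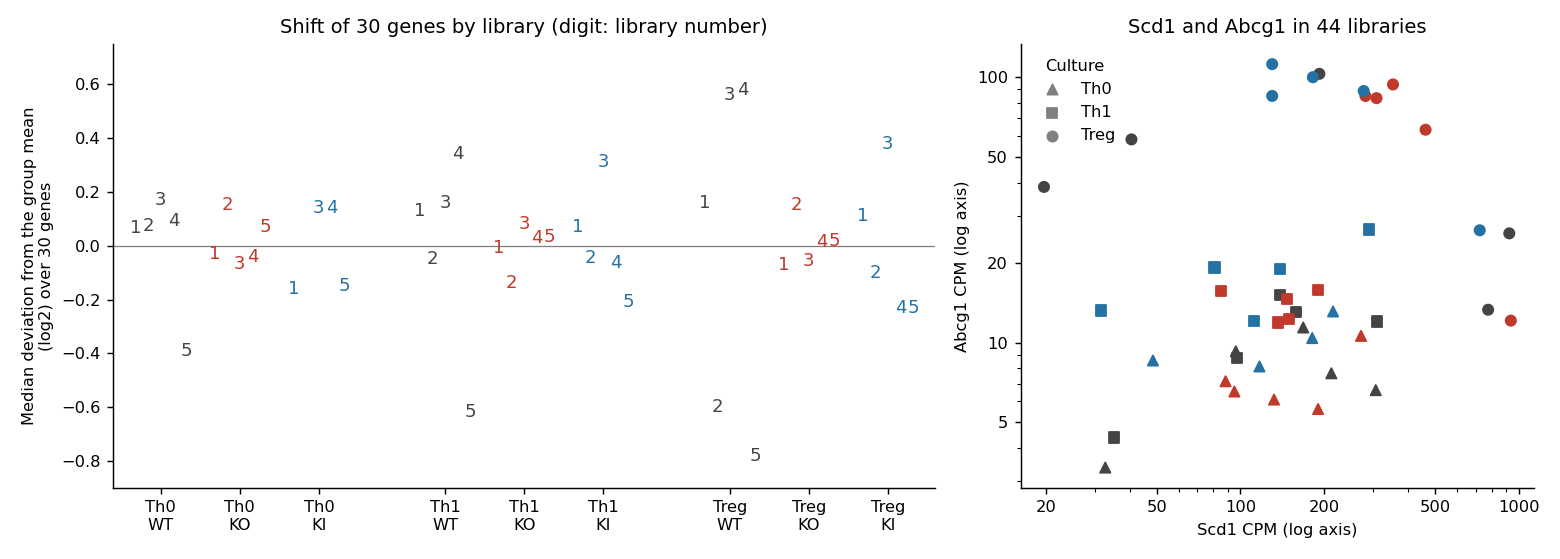
Left, the median log2 deviation of each library from its group mean over the 30 genes, with the library number as the plotting symbol; WT 5 is lowest in Th0, Th1 and Treg (-0.39, -0.62 and -0.78). Right, CPM of Scd1 and Abcg1 on log axes in the 44 libraries, by culture (shape) and genotype (colour as on the left), where the 4 Treg libraries with 723 to 935 CPM of Scd1 hold 12.1 to 26.5 CPM of Abcg1.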

How the data were processed

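RNA-seq counts per gene were analysed in 44 libraries of 9 groups. The deposited table holds whole-number counts for 88 lane columns that the authors made from reads trimmed and aligned with STAR, per the file headers. The 2 lanes of a library were summed. The submitters' processing notes name the human build GRCh38, while the gene identifiers are of mouse. Annotation, strand setting and treatment of multiply mapped reads were each not given in the sources used here. Coordinates are those of GRCm38 (GENCODE M21), and 1492 genes have no name. Samples were grouped by the labels.

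Counts were fitted over all 44 libraries with edgeR 4.0.16 (R 4.3.3, limma 3.58.1), using group means, TMM scaling (factors 0.939 to 1.05), filtering by expression and the quasi-likelihood test. Benjamini-Hochberg adjustment ran over 21873 genes in each of 22 comparisons, with a threshold of 0.05. Levels are TMM-scaled CPM, and log2 deviations used a pseudocount of 0.5 CPM. DESeq2 1.42.0 was an alternative, and the scripts were tested on simulated data. Replicates differed beyond sampling noise (lowest median chi-square 4.36 over 86 pairs).

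The members and lists were chosen with earlier results of these data known. Library values were given for 10 genes fixed by name and for the 8 others called in most comparisons, with ties ranked by the larger fold change. Of each further list, up to 4 called genes per comparison could be named. Within a genotype, libraries of one number deviated together in 8 of the 9 culture pairings, with every correlation above 0.1. The exception was Th0 with Treg in KO, where the lowest was 0.0845. Across genotypes the numbers did not pair.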

Additional observations from a re-analysis of the deposited data

Results flagged for a closer look

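In 18 of 162 sets of libraries of one gene and group, 1 library stood apart by Dixon's test, which flags about 1 in 20 sets by chance. The values are given without explanation. Scd1 reached 935 CPM in Treg KO 2, where the others held 281 to 462 CPM, and 723 CPM in Treg KI 3, where the others held 130 to 277 CPM. Both libraries were also low in Foxp3, and the libraries of these numbers also held the most Scd1 of their groups in Th0 and Th1.

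Th1 KI 3 was high for 3 genes. Mylip stood at 8.64 CPM there, with the others at 4.01 to 4.53, Sc5d at 103.3 CPM, with the others at 74.4 to 82.3, and Idi1 at 399 CPM, with the others at 283 to 310. Th1 KO 2 was low for 4 genes. It held 106.3 CPM of Sqle against 132.96 to 140, 147 CPM of Insig1 against 157 to 161, 74.2 CPM of Sc5d against 84.6 to 87.0, and 183 CPM of Idi1 against 304 to 345.

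The libraries numbered WT 5 were low for Insig1 in Th0, at 120 CPM against 151 to 160, and for Mylip in Th1, at 1.51 CPM against 3.41 to 4.01. Th0 WT 2 was high for Hmgcs1, at 533 CPM against 388 to 405, and for Mylip, at 3.40 CPM against 2.08 to 2.40. Th0 KI 1 was high for Idi1, at 573 CPM against 483 to 494, and low for Elovl6, at 43.7 CPM against 57.2 to 59.7.

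The rest were Srebf1 in Th1 KO 3, at 111.3 CPM against 81.4 to 89.9, Fads1 in Th1 KO 4, at 47.5 CPM against 57.9 to 60.8, and Fads1 in Treg KO 3, at 75.9 CPM against 80.02 to 80.8.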

How the results depend on the processing

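Of 54 calls of single genes, 38 held in every alternative run, 16 were lost in at least 1, and none changed sign. The cause of the changes in count was not tested. With the library number as a block (replicate block), the genes called were 2, 7 and 3 for Th1 against Th0 in WT, KO and KI, 14 and 12 for Treg against Th0 in WT and KI, and 9 and 12 for Treg against Th1 in WT and KI; the other counts stayed within 1.5 times and none passed between genotypes. Fitting only the groups compared gave 5 and 18 for Treg against Th0 in WT and KO, 2, 17 and 12 for Treg against Th1 in WT, KO and KI, and 10 for Th1 against Th0 in KO. Leaving out WT 4, KO 2 and KI 3 in all cultures, 9 passed for Treg against Th1 in WT and 6 for Th1 against Th0 in KO. With log2 Cd8a as a term these were 9 and 5, with 13 for Treg against Th1 in KI and 1 (Stard4) for KO against WT in Treg. Without the libraries numbered WT 5, chosen after seeing the data, 7 passed for Th1 against Th0 in KO and 11 for Treg against Th1 in KI.

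Leaving out 1 library at a time gave 1 to 2, 2 to 3 and 2 genes for Th1 against Th0 in WT, KO and KI, 6 to 13, 8 to 12 and 5 to 7 for Treg against Th0, and 4 to 9, 7 to 9 and 6 to 11 for Treg against Th1. Between genotypes it gave 0 to 1 for KI against WT in Th0 and for KO against WT in Treg, and 0 elsewhere. Depth was 60815821 counts or more per library, so the 5 libraries per group and the spread between them set the precision for the members.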

Other observations

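Further genes around the pathway were counted from lists beside the members, using the same fit. Over all genes tested, 17.4%, 17.1% and 16.7% rose in Treg against Th0 in WT, KO and KI, and 15.7%, 15.9% and 16.9% fell, and the counts below stand beside these shares. Of 12 fatty acid oxidation genes, Cpt1a, the gatekeeper of mitochondrial fatty acid entry, rose in Treg against Th0 in each genotype, by 1.17, 0.98 and 1.005 on the log2 scale in WT, KO and KI. Of the 12, 1 rose in WT, 3 in KO and 3 in KI, and 0, 2 and 1 fell. Of 15 tested genes of LXR response and sterol handling, 2 rose in WT, 5 in KO and 2 in KI, while 0, 1 and 2 fell. Among them Abca7, a lipid transporter, rose by 1.09, 1.21 and 1.05, and Soat1, which esterifies cholesterol for storage, rose by 0.87 in WT and 0.75 in KI. The genes that fell were Soat2, at -1.94 in KO and -2.39 in KI, and Npc2, at -0.60 in KI. Of 7 genes of the SREBP machinery, 1, 2 and 1 rose and 1, 1 and 0 fell. Among them Mbtps1, the site-1 protease that makes the first cut in SREBP, rose by 0.57, 0.70 and 0.89. The gene that fell was Fbxw7, at -0.52 in WT and -0.57 in KO.

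Of 11 other sterol and isoprenoid genes, 4, 3 and 4 fell in Treg against Th0 in WT, KO and KI, and 0, 1 and 1 rose. The log2 fold changes were -0.59, -0.91 and -0.82 for Nus1, a subunit of the dolichol-making enzyme, and -0.47, -0.29 and -0.45 for Coq2, of ubiquinone synthesis. Of 18 other fatty acid and glyceride genes, 3, 5 and 2 rose and 5, 8 and 5 fell. Acacb, the mitochondrial carboxylase, rose by 1.15, 2.16 and 1.26, against the fall of Acaca in WT and KO.

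Between Th1 and Th0, 2, 4 and 4 of the 18 other fatty acid and glyceride genes rose in WT, KO and KI and 0, 3 and 1 fell, beside 3.04%, 9.51% and 5.92% of all genes in either direction. Among them Me1, malic enzyme, rose by 3.94, 2.90 and 3.44 and Dgat1, which makes triglycerides, by 2.57, 2.37 and 2.25 against Th0 in WT, KO and KI. Both fell from Th1 to Treg, with log2 fold changes of -5.19, -6.75 and -6.07 for Me1 and -1.94, -2.12 and -2.21 for Dgat1. Between KO and WT in Treg, Lbr, a sterol reductase of the nuclear envelope, stood 0.53 higher and Acsl3, an acyl-CoA synthetase, 0.62 higher (adjusted p 0.0278 each by edgeR). Both calls were lost in 9 of 18 alternatives, with an adjusted p of 0.248 each without Treg WT 5 and 0.572 each when fitted on the groups compared alone.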
